A study of Mus musculus with 250 samples.

Results

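The change that came with a mammary tumor was compared between the spleen and the blood cells of the same mice. For each linked mouse, the log2 change in spleen (tumor-bearing minus its matched control) had the log2 change in blood cells subtracted from it. This value, called the spleen-blood difference below, was tested for 18193 genes over 24 linked pairs of mice. The pairs supplied 96 of the 250 arrays of the study, 24 per group and tissue, and each pair had 4 arrays. Tumor-bearing mice were female FVB mice with both the MMTV-rtTA and the TetO-NeuNT transgene, and their matched controls were littermates with TetO-NeuNT alone. NeuNT is an activated form of the receptor tyrosine kinase Her2/Neu, and the MMTV promoter is active mainly in mammary epithelium. Whether the transgenes were active in spleen or blood was not tested. Controls lacked the rtTA transactivator, and an effect of that protein and an effect of the tumor cannot be told apart. From the age of 8 weeks both groups were given water with 2 mg/mL doxycycline and 5% sucrose, and organs were taken once the tumor of the pair had reached 1 cm. Blood cells means blood from which the plasma was removed, and both tissues were measured on Affymetrix mouse genome-wide arrays.

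The arrays of different organs carry different sample numbers, so the organs of one mouse had to be linked. In 18 pairs the leading digits of the sample numbers were shared by spleen and blood for both mice, and 6 pairs were the only pair of their collection day in both organs. A further pair was linked by elimination only and was left out. After the mean of all pairs was removed, the change in spleen and the change in blood of the same mouse correlated over genes with a median of 0.0983, against 0.00154 for other pairings. The pairs were collected on 15 days, with 10 pairs in an earlier and 14 in a later series of days.

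Of the arrays, 5 stood apart from the others of their organ, in 4 pairs. The control arrays labelled spleen of pairs 13 and 21 had a mean log2 level of 13.20 and 13.02 over 10 genes of the kidney tubule, against 4.87 to 5.29 in 47 other spleen arrays. Their B cell genes were at 6.66 and 6.74, against 10.64 to 12.41. The tumor-bearing array labelled spleen of pair 21 had 9 genes of lung airway and heart at 12.53 (others 4.60 to 4.89) and 8 thymocyte genes at 11.83 (others 5.81 to 6.25). The control blood arrays of pairs 10 and 14 had platelet genes at 8.04 and 7.26, against 9.54 to 12.36 in the other blood arrays. Results are therefore given over all 24 pairs and over the 20 pairs without such an array. In those 20 pairs all 6 spleen markers checked (Spic, Cxcl13, Cd79a, Cr2, Vcam1, Stab2) lay above the median gene of the spleen arrays (7.78 on the log2 scale) in every array. The blood markers Alas2, S100a8, Cd3e and Cd79a likewise lay above the median gene of the blood arrays (5.14). Blood arrays were dim, with array medians of intensity between 19.7 and 31.9 against 100 to 111 in spleen, and levels are compared only within an organ. Erbb2 itself had a spleen-blood difference of -0.24 ± 0.17 (SE, sign-flip permutation p = 0.166, higher in 12 of 24 pairs).

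As background, blood neutrophils, red cells and platelets are made in bone marrow, and in mice the red pulp of the spleen can also make them when demand is high. Immature granulocytes fill their granules in order. The primary granule proteases are made first, in promyelocytes, then the proteins of the secondary and tertiary granules, and the mature cell that enters blood carries the proteins but few of the early transcripts. Blood of healthy mice therefore holds mainly mature cells, while spleen also holds dividing precursors, lymphocytes, macrophages, vessels and stroma. How mature the blood cells of these mice were was not measured. The spleen and blood samples were bulk samples, in which fewer cells of a type and less RNA per cell cannot be told apart.

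Changes were widespread in spleen and fewer in blood, and many genes moved by unequal amounts. In spleen 4024 genes rose (22.1%) and 3299 fell (18.1%), and in blood 1533 rose (8.43%) and 758 fell (4.17%). The spleen-blood difference was above 0 for 2002 genes (11%) and below 0 for 1740 (9.56%), by a limma test adjusted over all genes by the method of Benjamini and Hochberg at 0.05, as in all counts below. The difference was at least 1 on the log2 scale for 372 of the genes above and 233 of those below. In the 20 pairs 3080 genes (16.9%) were above and 2511 (13.8%) below, 30.7% of all genes. There 28.0% rose and 25.3% fell in spleen, and 9.49% rose and 10.3% fell in blood. Of the 3742 genes called in 24 pairs (20.6%), 3515 were also called in the 20 pairs and all 3742 kept their sign there. The 2 series of days counted fewer genes, 803 above and 903 below in the 10 earlier pairs and 1513 and 717 in the 14 later pairs.

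The genes called for their difference were counted in 4 patterns, which overlap: 2820 of the 3742 genes met 1 pattern, 369 met more than 1 and 553 met none. The spleen changed while the 95% interval of the blood change stayed within 0.5 of 0 for 2211 genes (12.2%), of which 1478 were higher in spleen. For 1286 of these (58.2%) the blood level lay below the median gene of blood, and 216 were at the lowest value used (an intensity of 11.3, or 3.50 on the log2 scale) in at least 24 of the 48 blood arrays. The part of the dim blood arrays in these counts was not tested. Blood changed while the spleen change was bounded in the same way for 728 genes (4%), of which 83 lay below the median level of blood. The organs moved in opposite directions for 259 genes (1.42%), with 128 up in spleen and down in blood and 131 the other way. They moved in the same direction by unequal amounts for 413 genes (2.27%), and 276 of these changed more in blood. The shares of the 4 patterns in the 20 pairs, in the same order, were 18.7%, 7.85%, 3.84% and 4.23% of all genes. Genes are described below by lists of cell types and pathways, and members named as examples beyond the naming rule given with the methods were chosen after their values were seen. For every list the shares of all genes to compare with are 11% above 0 and 9.56% below in 24 pairs. In the 20 pairs they are 16.9% and 13.8%.

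**Figure D1:**
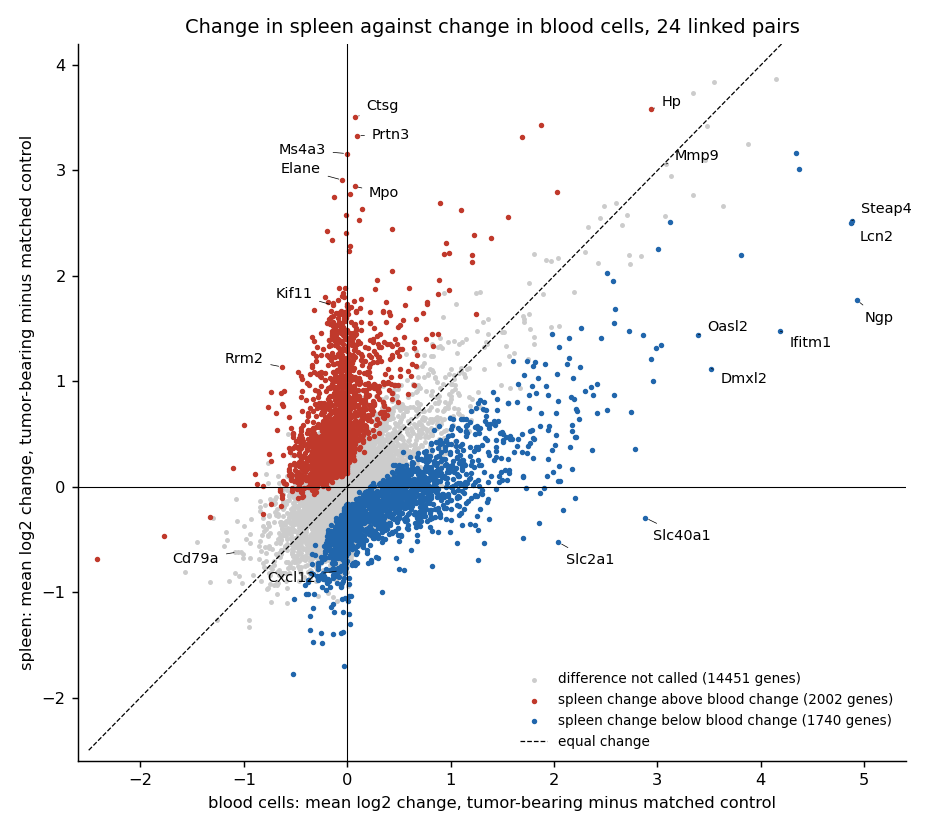
Mean log2 change of each of 18193 genes in blood (horizontal) and spleen (vertical) over 24 linked pairs, with genes called for a spleen-blood difference in red (2002, spleen above) and blue (1740, spleen below) and the line of equal change dashed. Ctsg and Prtn3 rise above 3 in spleen with blood near 0, and Ngp, Steap4 and Lcn2 lie far to the right, near 5 in blood.

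The clearest separation was between early and late stages of granulocyte genes. Of 8 measured genes of the primary granule list, which also holds membrane protein genes such as Ms4a3 and Nkg7, 8 rose in spleen. In blood 2 rose and 1 fell. The difference was above 0 for 7 of the 8 and below 0 for 1, against 11% and 9.56% of all genes, and the same 7 and 1 were counted in the 20 pairs. The medians of the list were 2.88 in spleen and 0.07 in blood, against 0.00 and -0.03 over all genes. Of the 8 genes, 3 lay below the median gene of blood.

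Elane, the gene of neutrophil elastase, had log2 levels in control spleen of 6.84, 9.44 and 11.18 (lowest, median and highest of 24 arrays) and of 6.14, 12.56 and 13.72 in tumor-bearing spleen. In blood the same 3 values were 4.33, 4.77 and 5.94 in controls and 4.06, 4.89 and 5.24 in tumor-bearing mice. The spleen groups were apart in the 20 pairs (highest control 11.18, lowest tumor-bearing 11.86), and the low tumor-bearing array was that of pair 21, while the blood groups overlapped. Elane rose 7.51-fold in spleen and changed by -0.05 ± 0.10 (log2, SE) in blood, a spleen-blood difference of 2.96 ± 0.29 (adjusted p = 5.93e-08, above 0 in 23 of 24 pairs; 2.79 ± 0.23 in the 20 pairs).

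Ctsg, which encodes the related granule protease cathepsin G, had the largest positive difference of all genes. Its control spleens lay at 5.18, 7.81 and 9.60 and its tumor-bearing spleens at 4.88, 11.50 and 12.86. Its blood arrays stayed between 3.70 and 4.87 in both groups. The spleen change was 11.3-fold, and the difference was 3.42 ± 0.30 (adjusted p = 1.29e-08; 3.29 ± 0.23 in the 20 pairs, with no overlap of the spleen groups there). The other early genes followed the same form. Prtn3, proteinase 3, differed by 3.23 ± 0.28, Ms4a3, a membrane protein of myeloid precursors, by 3.16 ± 0.31, and Mpo, myeloperoxidase, by 2.78 ± 0.31. Their blood changes were 0.10, 0.00 and 0.07. Fcnb, a ficolin of immature myeloid cells, differed by 2.42 ± 0.25 and Prg2, the eosinophil granule major basic protein, by 2.74 ± 0.35. Nkg7, a granule membrane protein shared with cytotoxic lymphocytes, was the primary list's member with opposite changes, 0.53 in spleen and -0.68 in blood. Igsf6 was the exception below 0 (1.17 in spleen, 2.13 in blood, difference -0.96).

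Genes of the later granules rose in both organs, and the largest rose more in blood. Of 13 measured genes of the late granule list, 12 rose in spleen and 11 in blood, with medians of 2.51 and 3.08. This list also holds Padi4 and Ltb4r1, which do not encode granule proteins. Its counts are therefore not of granule proteins alone. The difference was above 0 for 2 and below 0 for 4 (6 in the 20 pairs). Ngp, neutrophilic granule protein, a cathelicidin relative of the secondary granule, had control blood levels of 4.31, 6.21 and 9.23 and tumor-bearing blood levels of 9.21, 11.40 and 13.46. Its spleen levels were 8.39, 12.20 and 13.47 in controls and 7.49, 13.99 and 14.45 in tumor-bearing mice. In blood 23 of the 24 tumor-bearing arrays lay above every control, and in spleen the groups were apart in the 20 pairs. Ngp rose 30.5-fold in blood and 3.41-fold in spleen, a difference of -3.16 ± 0.28 (adjusted p = 1.9e-08, below 0 in 24 of 24 pairs). The tumor-bearing spleen medians of Ngp and Camp lay within 1 of the top of the spleen scale (a median of 14.60 for the highest gene of an array), and the part of that ceiling in their smaller spleen changes was not tested.

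Lcn2, the iron-siderophore binding lipocalin, rose 29.2-fold in blood and 5.68-fold in spleen (difference -2.36 ± 0.33). Its control blood levels were 4.03, 4.93 and 11.36, against 8.21, 10.18 and 12.50 in tumor-bearing mice, of which 4 lay above every control. Further members were the lactoferrin gene Ltf (3.01 in spleen, 4.37 in blood, difference -1.35) and the cathelicidin gene Camp (2.20, 3.81 and -1.61). Not all late genes leaned to blood. Mmp9, the gelatinase of tertiary granules, changed by 3.06 in spleen and 3.08 in blood, and Cd177, a neutrophil surface antigen, by 3.84 and 3.55, with neither difference called. Padi4, which citrullinates histones in neutrophils, went the other way: it rose 2.63 ± 0.21 in spleen and changed by 0.14 ± 0.23 in blood (difference 2.50 ± 0.25).

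Promoters of Ngp and Elane are shown as examples of the late and primary granule lists, with differences of opposite sign (-3.16 and 2.96). Ctsg, Prtn3 and Ms4a3 had larger differences than Elane. Each is the 250 bases before the RefSeq start (GRCm38.p6): Ngp at chr9:110419558-110419807 and Elane at chr10:79886062-79886311, both on the plus strand. Capitals mark the C/EBP-type motif TTNNGNAA, searched on both strands.
Ngp: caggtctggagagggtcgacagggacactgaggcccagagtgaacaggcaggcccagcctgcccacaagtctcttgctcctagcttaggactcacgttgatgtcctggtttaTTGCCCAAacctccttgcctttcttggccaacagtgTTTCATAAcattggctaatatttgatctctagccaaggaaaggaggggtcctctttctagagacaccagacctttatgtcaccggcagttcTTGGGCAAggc
Elane: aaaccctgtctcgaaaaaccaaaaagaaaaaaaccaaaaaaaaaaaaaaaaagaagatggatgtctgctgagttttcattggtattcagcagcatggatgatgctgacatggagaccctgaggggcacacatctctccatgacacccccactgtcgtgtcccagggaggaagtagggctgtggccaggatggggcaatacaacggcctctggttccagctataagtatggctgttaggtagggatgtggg
C/EBP factors are transcription factors of granulocyte differentiation. The Ngp window held 3 matches and the Elane window 0. The motif was found in 8 of 12 promoters of late granule genes (66.7%) and in 2 of 7 of primary granule genes (28.6%), against 36.9% of all 32841 promoters in the table. Among promoters of all genes called for their difference, it was in 28.9% of those above 0 and 30.0% of those below. A match describes the letters only, and no binding was measured.

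Surface and cytoplasmic genes of mature neutrophils rose in both organs. All 11 measured members rose in spleen and in blood (medians 2.11 and 2.60), with the difference above 0 for 2 and below 0 for 4. Csf3r, the receptor of the granulocyte growth factor G-CSF, rose by 2.70 and 2.60 with no called difference. S100a8 and S100a9 encode the calcium-binding pair calprotectin, the most abundant cytosolic proteins of neutrophils. S100a8 control spleens lay at 8.58, 13.10 and 13.89 and tumor-bearing spleens at 9.11, 14.36 and 14.65, and in blood the values were 5.90, 10.95 and 12.28 against 12.73, 13.74 and 14.45. Every tumor-bearing blood array was above every control, and the difference was -1.73 ± 0.28 for S100a8 (adjusted p = 4.54e-05) and -1.69 ± 0.26 for S100a9. The top of the scale lies close: the highest gene of a spleen array had a median of 14.60, and the tumor-bearing spleen medians of both genes lay within 1 of it. How far that ceiling set their smaller spleen change was not tested. Cxcr2, the chemokine receptor of neutrophil exit from marrow, changed by 2.26 in spleen and 3.01 in blood (difference -0.75). The cystatin gene Stfa3 rose more in spleen (2.22 against 0.98, difference 1.23 ± 0.20).

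The 12 largest positive differences also included 3 genes of other kinds. Armcx4, of the armadillo repeat family, lay at 5.85, 6.29 and 7.28 in control spleens and at 7.43, 8.83 and 9.46 in tumor-bearing spleens, and no tumor-bearing spleen overlapped a control. Its difference was 2.49 ± 0.19 (adjusted p = 1.04e-09, above 0 in 24 of 24 pairs), and 34 of 48 blood arrays were at the lowest value used. Dmkn, dermokine, a secreted protein of the epidermis, had spleen levels of 4.70, 5.16 and 6.62 in controls and 6.33, 7.69 and 10.0 in tumor-bearing mice, of which 21 lay above every control (difference 2.87 ± 0.28, and 2.55 ± 0.23 in the 20 pairs). Glycam1, a mucin of milk and of high endothelial venules, had spleen levels of 4.22, 4.62 and 4.99 in controls and 4.62, 7.08 and 12.33 in tumor-bearing mice, of which 23 lay above every control. The highest was 8.88 in the 20 pairs, and the difference was 2.59 ± 0.34 (adjusted p = 3.14e-06; 2.19 ± 0.27 in the 20 pairs). The blood changes of Armcx4, Dmkn and Glycam1 were -0.14, -0.12 and -0.01, and none was called.

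**Figure D2:**
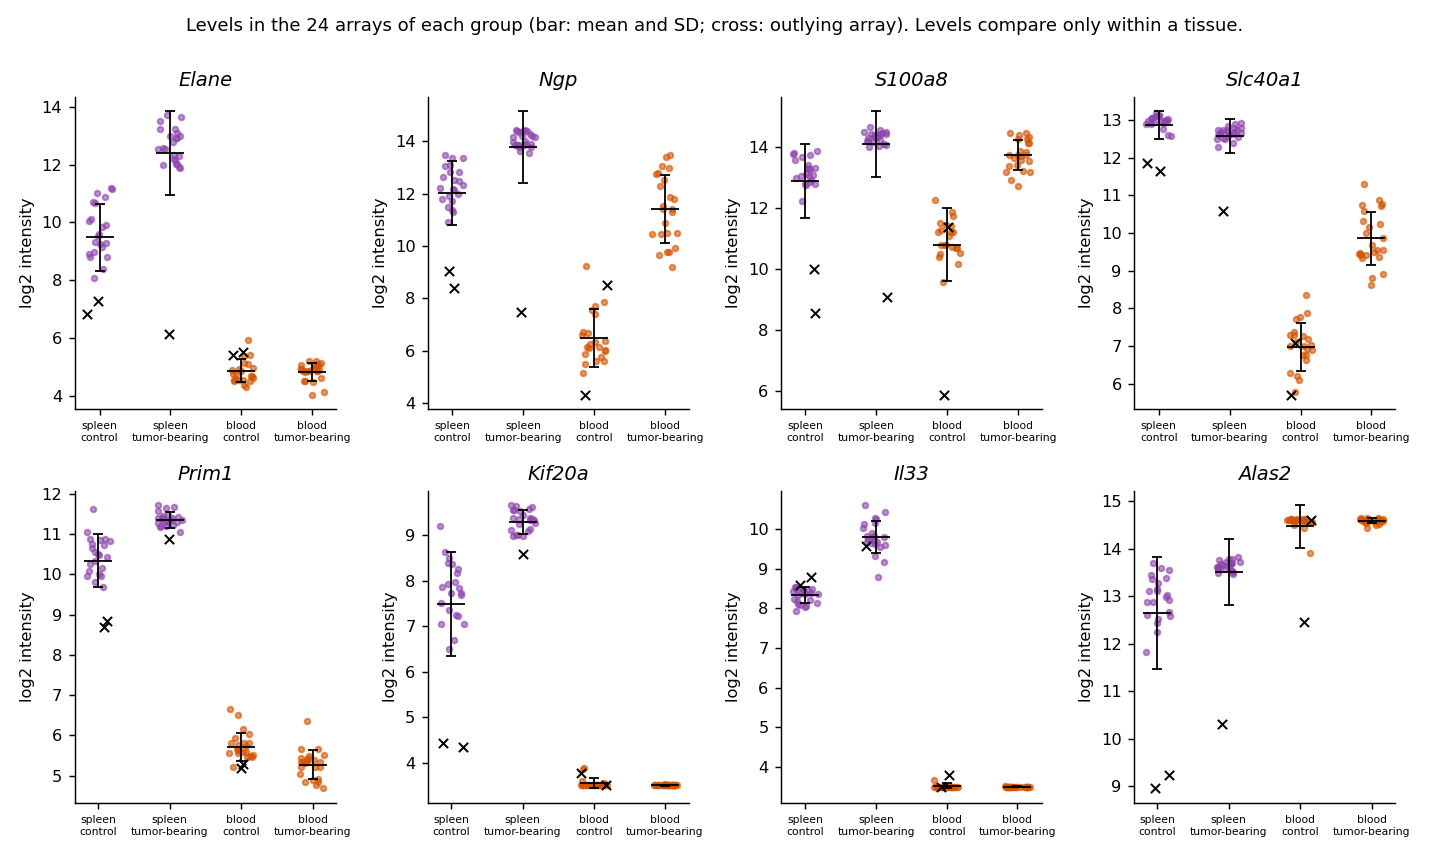
Log2 intensity of 8 genes in the 24 arrays of each group (points; bar for mean and SD; crosses for the 5 arrays that stood apart), in spleen and blood of control and tumor-bearing mice. Elane is higher in tumor-bearing spleens and not in blood, Ngp and S100a8 are higher in both organs, the Slc40a1 groups are apart in blood only, and Il33 sits at the lowest value used (3.50) in most blood arrays.

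Sensors of microbial products also leaned to blood. Of 20 innate receptor genes, 14 rose in spleen and 16 in blood, and the difference was above 0 for 2 and below 0 for 8. Myd88, the adaptor shared by most Toll-like receptors, rose by 0.53 ± 0.06 in spleen and 2.17 ± 0.18 in blood (difference -1.64 ± 0.15, adjusted p = 3.68e-08, below 0 in 24 of 24 pairs). Tlr2 and Tlr6, which pair to bind bacterial lipopeptides, differed by -1.37 ± 0.13 and -1.42 ± 0.17. The exceptions above 0 were the C-type lectin Clec4d (difference 1.00) and the IgG receptor Fcgr1 (0.52).

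Targets and components of cytokine signalling through STAT3 were split. Of 20 acute phase and STAT3 genes, 14 rose and 1 fell in spleen and 13 rose in blood, with 5 differences above 0 and 8 below. Steap4, a metalloreductase induced by inflammatory cytokines, rose by 2.52 ± 0.15 in spleen and 4.88 ± 0.24 in blood, with no overlap of the groups in either organ (difference -2.35 ± 0.15, adjusted p = 7.73e-11). Stat3 itself changed by -0.04 in spleen and 1.11 in blood (difference -1.15), its feedback inhibitor Socs3 by 1.48 and 2.73 (-1.25), and the receptor gene Il6ra by -0.05 and 0.79 (-0.84). Il4ra, a receptor chain for interleukins 4 and 13, differed by -1.31 ± 0.18. On the spleen side stood the serum amyloid gene Saa3 (1.89 and 0.59, difference 1.29), the oncostatin M receptor Osmr and, outside the list, the acute phase plasma protein Orm1 (2.42 and -0.20, difference 2.62 ± 0.38). Osmr was at the lowest value used in 45 of the 48 blood arrays, and its difference of 0.47 ± 0.06 therefore rests on spleen. The blood change of Orm1 ran from -4.35 to 3.48 over the 24 pairs and also over the 20 pairs. Single blood arrays had high levels of hepatocyte genes, as given below, and their part in the Orm1 values was not tested. The Orm1 difference was not called in the earlier series (2.07, limma adjusted p = 0.0537). Haptoglobin, Hp, which binds free haemoglobin, rose by 3.58 in spleen and 2.94 in blood (difference 0.64).

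Of 17 genes of iron handling, 6 differences were above 0 and 3 below, and the 3 below included the largest. Slc40a1 encodes ferroportin, the only known iron exporter of mammalian cells, which is abundant in red pulp macrophages. Its blood levels were 5.71, 7.01 and 8.34 in controls and 8.61, 9.62 and 11.30 in tumor-bearing mice, and its spleen levels were 11.65, 12.97 and 13.18 against 10.57, 12.65 and 12.93. All 24 tumor-bearing blood arrays lay above all 24 controls, while the spleen groups overlapped. It rose 7.38-fold in blood and fell by 0.30 on the log2 scale in spleen (lower in 23 of 24 pairs), a difference of -3.18 ± 0.24 (adjusted p = 1.29e-09; -2.99 ± 0.25 in the 20 pairs). This was the largest negative difference of all genes. The haem oxygenase gene Hmox1, which frees iron from haem, differed by -0.99 ± 0.15, with 0.72 in blood, and the phagosomal metal transporter Slc11a1 by -1.29 ± 0.25.

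The glucose transporter Slc2a1 (Glut1) rose 4.12-fold in blood and fell by 0.53 in spleen. Its control blood arrays lay at 5.79, 7.47 and 8.92 and the tumor-bearing at 8.43, 9.47 and 10.69, and its spleen arrays at 10.01, 10.55 and 11.11 against 9.63, 10.05 and 10.41. Groups overlapped in both organs, but all 24 pairs were below 0 in the difference of -2.57 ± 0.23 (adjusted p = 1.32e-08). Of 18 glycolysis and hypoxia genes, 7 rose and 3 fell in spleen and 7 rose in blood, and 6 differences were below 0 and 1 above. Bnip3, a hypoxia-induced mitophagy receptor, differed by -1.48 ± 0.23, and the enzyme genes Pgam1 (-0.86) and Aldoa (-0.71) were also below 0. Hexokinase 1, Hk1, was the gene above 0 (0.66 in spleen, -0.08 in blood, difference 0.74 ± 0.15). Over the 20 pairs 5 were below and 2 above.

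The rest of the 12 most negative differences were of mixed kind. Ifitm1, an interferon-induced transmembrane protein, rose 18.2-fold in blood and 2.78-fold in spleen with no overlap of groups in either organ (difference -2.71 ± 0.16, adjusted p = 2.34e-11). Slc35a5, a nucleotide sugar transporter, and Dmxl2, a regulator of the vesicular proton pump, rose in both organs and more in blood (differences -2.43 ± 0.17 and -2.40 ± 0.24). Marcks, a substrate of protein kinase C at the membrane, rose by 2.20 ± 0.19 in blood with a spleen change of -0.10 ± 0.11. The sorting receptor Sorl1 rose 4.25-fold in blood and fell by 0.22 in spleen, and the glycosyltransferase Gcnt1, which builds core 2 O-glycans of selectin ligands, rose by 1.70 and fell by 0.49. Cyp4f18, which breaks down leukotriene B4, rose by 1.85 in blood, and its spleen change of -0.34 ± 0.22 passed only in the 20 pairs (-0.62). With blood changed and spleen bounded stood also Tpd52, Tmem268 and the transcriptional repressor Bcl6 (differences -2.01 ± 0.23, -2.0 ± 0.20 and -1.99 ± 0.25).

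Interferon-stimulated genes as a group did not lean one way. Of 19 measured, 12 rose and 4 fell in spleen, 8 rose and 1 fell in blood, and 2 differences were above 0 and 4 below. Oasl2, an antiviral oligoadenylate synthetase relative, rose by 1.44 ± 0.11 and 3.40 ± 0.21 (difference -1.95 ± 0.19). Gbp2, a guanylate-binding protein induced by interferon gamma, fell by 0.36 in spleen and rose by 1.11 in blood. The chemokine genes Cxcl9 and Cxcl10, also induced by interferon gamma, fell in spleen (-0.89 and -0.74) with blood changes of -0.04 and 0.07.

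**Figure D3:**
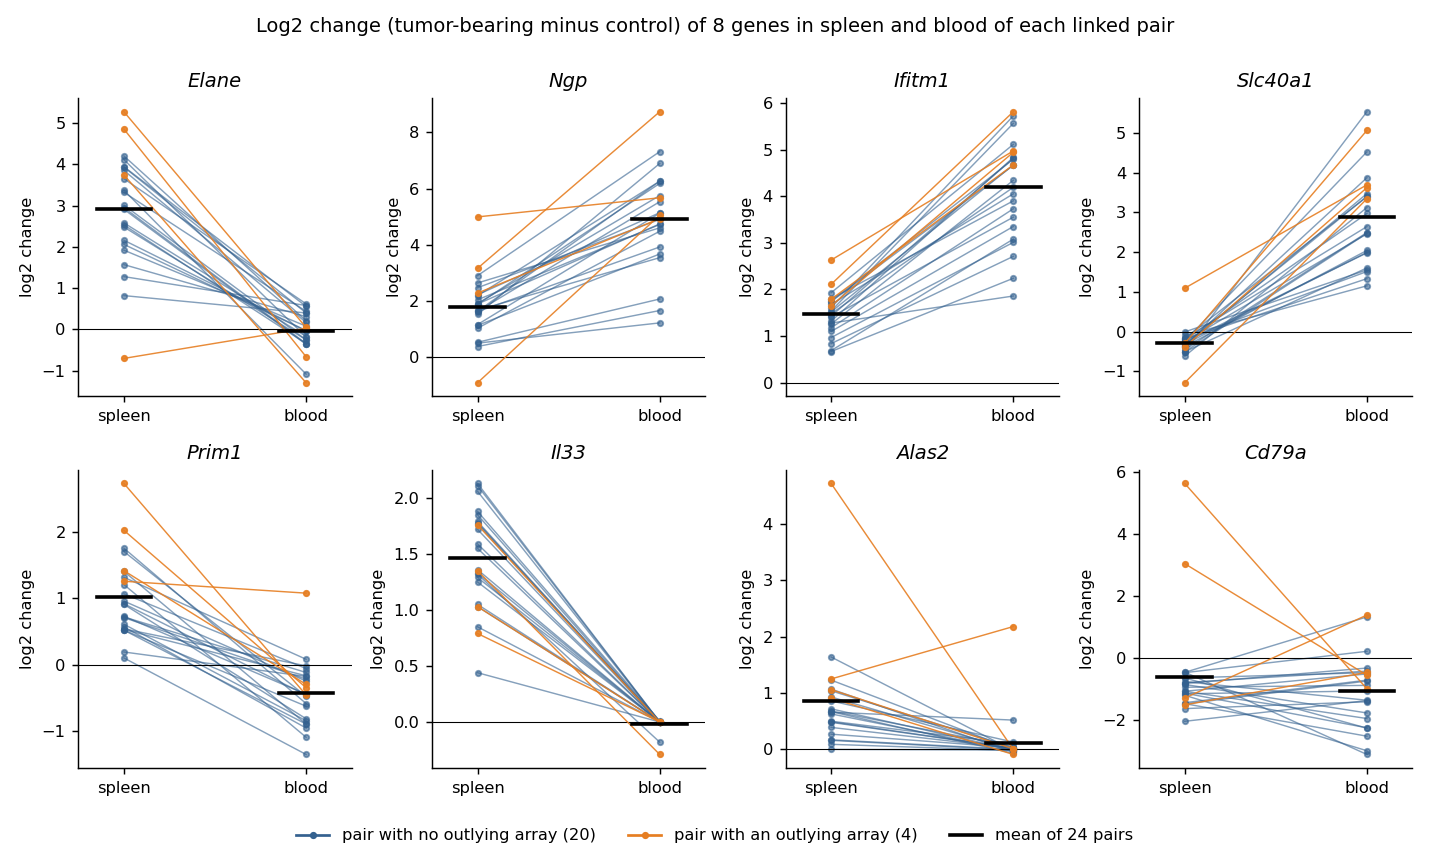
Log2 change (tumor-bearing minus matched control) of 8 genes in spleen and blood of each of the 24 linked pairs, with a line joining the organs of a pair, the 4 pairs with an array that stood apart in orange and the mean as a black bar. Lines for Il33 and, in 23 of 24 pairs, Elane run down from spleen to blood, those for Ngp, Ifitm1 and Slc40a1 run up, and Cd79a has pairs 13 and 21 at 5.63 and 3.04 in spleen against -2.05 to -0.46 in the 20 other pairs.

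Cell division genes formed the most uniform block on the spleen side. All 23 measured DNA replication genes rose in spleen, none rose (1 at an unadjusted p under 0.05 by limma) and 6 fell in blood, and all 23 differences were above 0, against 11% of all genes. The medians were 1.13 in spleen and -0.21 in blood, and in the 20 pairs all 23 differences were again above 0, with 11 falls and 1 rise in blood. Of 23 mitosis genes, 23 rose in spleen, 5 rose and 1 fell in blood, and 20 differences were above 0, also in the 20 pairs. Of the replication and mitosis genes, 11 and 12 lay below the median gene of blood.

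Prim1, the primase subunit that starts each new DNA strand, rose by 1.02 ± 0.12 in spleen and fell by 0.44 in blood (difference 1.46 ± 0.14, adjusted p = 5.55e-08, above 0 in 24 of 24 pairs). Rrm2, the ribonucleotide reductase subunit that limits the supply of deoxynucleotides, had control blood levels of 4.92, 5.79 and 7.35 and tumor-bearing levels of 4.71, 5.30 and 5.97. In spleen it was at 8.13, 12.39 and 13.17 in controls and at 12.44, 13.10 and 13.27 in tumor-bearing mice. Its groups overlapped in both organs, and the means moved apart, with a 2.20-fold rise in spleen, a 1.55-fold fall in blood and a difference of 1.76. Tyms, thymidylate synthase, and Gins2, a subunit of the replicative helicase, differed by 1.31 ± 0.13 and 1.30 ± 0.13 with blood changes of -0.07 and 0.00.

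The mitotic kinesin genes Kif11 and Kif20a differed by 1.86 ± 0.20 and 1.86 ± 0.22, and the spindle checkpoint kinase Bub1b by 1.65 ± 0.21. Kif20a was at the lowest value used in 42 of 48 blood arrays. Their spleen changes were smaller in the 20 pairs (1.35, 1.47 and 1.32 against 1.72, 1.81 and 1.63). Cdc20, the activator of the anaphase-promoting complex, rose 2.51-fold in spleen and fell 1.23-fold in blood (difference 1.63). The 5 mitosis genes that rose in blood were Mki67 (0.67 ± 0.16), Ccnb2 (0.93), Ccna2 (0.89), Nusap1 (0.55) and Kif23 (0.65). Mki67, the common proliferation marker, rose by 1.29 ± 0.27 in spleen, and its difference of 0.62 ± 0.30 was not called (adjusted p = 0.164). Ccnb2 and Ccna2, cyclins of the G2 and S phases, were the other 2 without a called difference.

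Promoters of 3 of these genes are shown because genes of replication and mitosis are known to be controlled through CCAAT boxes, the CHR element and E2F sites near the start. The windows are the 250 bases before the RefSeq start (GRCm38.p6), Cdc20 at chr4:118437344-118437593 on the minus strand, Kif11 at chr19:37376132-37376381 and Rrm2 at chr12:24708004-24708253 on the plus strand. Capitals mark CCAAT and the CHR letters TTTGAA on either strand.
Cdc20: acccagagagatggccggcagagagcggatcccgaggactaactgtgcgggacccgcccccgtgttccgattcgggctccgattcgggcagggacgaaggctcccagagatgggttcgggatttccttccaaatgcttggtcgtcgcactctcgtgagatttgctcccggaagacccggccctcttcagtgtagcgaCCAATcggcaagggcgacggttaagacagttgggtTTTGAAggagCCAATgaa
Kif11: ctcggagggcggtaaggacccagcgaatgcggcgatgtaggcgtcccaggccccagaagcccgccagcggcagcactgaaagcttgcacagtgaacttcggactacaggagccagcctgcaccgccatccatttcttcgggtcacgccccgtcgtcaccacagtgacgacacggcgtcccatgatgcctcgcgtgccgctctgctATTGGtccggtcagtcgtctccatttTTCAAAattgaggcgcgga
Rrm2: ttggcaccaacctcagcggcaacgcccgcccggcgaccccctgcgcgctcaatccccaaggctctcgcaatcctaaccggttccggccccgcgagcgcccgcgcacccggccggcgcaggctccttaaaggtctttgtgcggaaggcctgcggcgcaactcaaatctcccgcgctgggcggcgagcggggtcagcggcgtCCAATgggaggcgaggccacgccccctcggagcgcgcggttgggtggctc
A CCAAT box was found in 17 of 19 promoters of mitosis genes (89.5%) and 15 of 21 of replication genes (71.4%), against 33.9% of all promoters. The CHR letters were in 8 of the mitosis promoters (42.1%) and 2 of the replication promoters (9.52%), against 16%. The E2F letters TTTNNCGC were in 1 and 8 (5.26% and 38.1%), against 4.28%. Promoters of 18 of the 23 mitosis genes and 19 of the 23 replication genes were in the table used.

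Red cell genes rose in spleen with smaller median changes in blood, and the median differences were smaller in the 20 pairs. Of 19 early erythroid genes, 18 rose in spleen and 9 rose and 1 fell in blood, and 12 differences were above 0 and none below (1 at an unadjusted p under 0.05 by limma). The medians were 1.05 in spleen and 0.28 in blood, and the median difference was 0.8. In the 20 pairs 19 rose in spleen, 9 rose and 2 fell in blood, and 13 differences were above 0 and 0 below. The medians there were 0.92 in spleen and 0.31 in blood, with a median difference of 0.52. The largest differences were those of the transcription factors Tal1 (1.42 in spleen, -0.34 in blood, difference 1.76) and Gfi1b (1.06 and -0.36, difference 1.43 ± 0.23), the co-activator Cited4 (1.30 and -0.07, difference 1.37) and the transcription factor Gata1 (1.29 and -0.06, difference 1.35). Epor, the erythropoietin receptor, changed by 1.05 and 0.00, and the haem synthesis enzyme Uros by 0.94 and -0.05. The transferrin receptor Tfrc rose by about the same amount in both organs (0.98 and 1.00), and Car2, a carbonic anhydrase, rose in blood (0.95) with a spleen change of 0.32 that was not called.

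Of 14 late erythroid genes, 13 rose in spleen and 8 in blood. Of their differences 6 were above 0 and none below (0 also at an unadjusted p under 0.05 by limma). The medians were 1.11 in spleen and 0.49 in blood, with a median difference of 0.4. In the 20 pairs 14 rose in spleen and 11 in blood, again with 6 differences above 0 and 0 below. The medians there were 0.91 in spleen and 0.5 in blood, with a median difference of 0.21. Ank1, the membrane skeleton protein ankyrin, differed by 0.94 ± 0.21 (0.72 ± 0.16 in the 20 pairs). Alas2, the erythroid enzyme that starts haem synthesis, lay at 8.96, 12.96 and 13.70 in control spleens and 10.30, 13.64 and 13.82 in tumor-bearing spleens. In blood its medians were 14.59 in both groups, at the top of the scale, as were those of the last enzyme of the path, Fech. The Alas2 difference was 0.74 ± 0.19 (adjusted p = 0.00614; 0.60 ± 0.09 in the 20 pairs) and that of Fech 0.64 ± 0.14. The part of this ceiling in the differences was not tested. In the later series alone neither passed (adjusted p = 0.0685 and 0.0774).

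The Alas2 promoter (chrX:150547167-150547416, plus strand, 250 bases before the RefSeq start, GRCm38.p6) is shown because GATA1, whose gene rose in spleen, is known to bind at this gene. Capitals mark the GATA motif AGATAA on either strand.
Alas2: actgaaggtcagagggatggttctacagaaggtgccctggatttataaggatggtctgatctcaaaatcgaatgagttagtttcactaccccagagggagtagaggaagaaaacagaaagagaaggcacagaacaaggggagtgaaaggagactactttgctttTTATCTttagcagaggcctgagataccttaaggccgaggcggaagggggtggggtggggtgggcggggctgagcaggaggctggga
The motif was in 6 of 12 late erythroid promoters (50.0%) and 2 of 21 early ones (9.52%), against 9.99% of all promoters.

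Progenitor genes were also on the spleen side, and platelet genes only without the pairs with arrays that stood apart. Of 18 megakaryocyte and platelet genes, 16 rose in spleen, and 1 difference was above 0, against 11% of all genes. In blood limma called 0 (1 higher at an unadjusted p under 0.05). In the 20 pairs 18 rose in spleen, 1 rose and 2 fell in blood, and 13 differences were above 0. The platelet list medians were 0.59 in spleen and 0.13 in blood over 24 pairs, and 0.42 and -0.11 in the 20 pairs. The pairs left out included the control blood arrays of pairs 10 and 14. Their platelet genes lay at 8.04 and 7.26, against 9.54 to 12.36 in the other blood arrays. Pf4, platelet factor 4, is an example: 0.52 ± 0.20 in spleen and 0.14 ± 0.19 in blood over 24 pairs (difference 0.38 ± 0.28, adjusted p = 0.404), and 0.34 ± 0.08 for the difference in the 20 pairs (adjusted p = 0.00265). Selp, P-selectin of platelets and endothelium, was the member called in 24 pairs (0.85). Of 16 stem and progenitor genes, 8 rose in spleen and 7 differences were above 0. Among them were the repressor Gfi1 (1.62 ± 0.26), the proto-oncogene Myb (1.39 in spleen, -0.12 in blood, difference 1.51), the surface antigen Cd34 (0.78 ± 0.14) and Sox4 (0.30 in spleen, -0.62 in blood). Kit, Hoxa9 and Meis1 changed by 0.13, -0.05 and -0.08 in spleen and were not called.

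**Figure D4:**
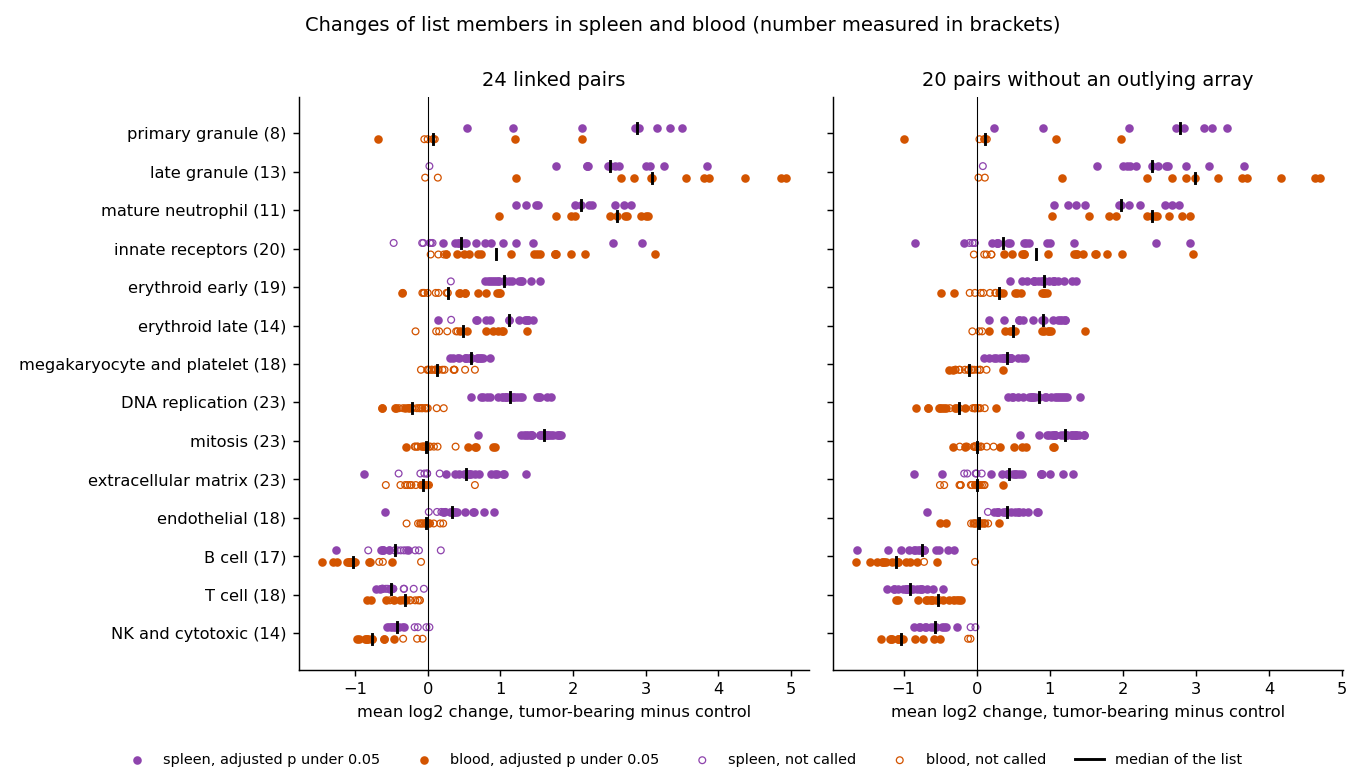
Mean log2 change of each member of 14 gene lists in spleen (purple) and blood (orange), over 24 pairs (left) and over the 20 pairs without an array that stood apart (right), with filled points for adjusted p under 0.05 and a black bar for the median of the list. Primary granule, DNA replication and mitosis members lie to the right in spleen and around 0 in blood, while T cell and B cell members move to the left in both organs once the 4 pairs are left out.

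Stromal and vascular genes rose in spleen. Of 23 extracellular matrix genes, 16 rose and 1 fell in spleen, with 15 differences above 0 and 1 below. In blood limma called 0 of them, with 1 higher and 4 lower at an unadjusted p under 0.05, and 17 of the 23 lay below the median gene of blood. Timp1, an inhibitor of matrix metalloproteinases, rose by 1.36 ± 0.10 (difference 1.40 ± 0.12, adjusted p = 8.37e-09), and the fibrillar collagen genes Col5a1 and Col5a2 differed by 0.94 ± 0.11 and 1.09 ± 0.13. The basement membrane collagens Col4a1 and Col4a2 differed by 1.12 and 0.88. Ogn, the small proteoglycan osteoglycin, was the member that fell (-0.87). Of 18 endothelial genes, 13 rose and 1 fell in spleen, and 10 differences were above 0 (15 in the 20 pairs). In blood limma called 0, with 2 higher at an unadjusted p under 0.05. Cdh5, the cadherin of endothelial junctions, differed by 0.66 ± 0.10 and Stab2, a scavenger receptor of splenic sinus endothelium, by 0.92 ± 0.20 (0.62 ± 0.08 in the 20 pairs). Pecam1, which is also on platelets and leukocytes, fell in spleen (-0.59).

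Genes of signals between cells were called in spleen about as often as all genes, of which 22.1% rose and 18.1% fell there. Of 25 chemokine and cytokine genes, 5 rose and 5 fell in spleen and 3 rose in blood, with 2 differences above 0 and 4 below. Il33, an alarmin stored in the nuclei of stromal and endothelial cells, lay at 7.93, 8.37 and 8.79 in control spleens and at 8.80, 9.75 and 10.62 in tumor-bearing spleens. No tumor-bearing spleen overlapped a control, and 45 of 48 blood arrays were at the lowest value used. The rise was 2.75-fold and the difference 1.48 ± 0.09 (adjusted p = 5.44e-11). Cxcl12, the stromal chemokine that retains precursors and lymphocytes, fell by 0.80 in spleen (lower in 23 of 24 pairs) with -0.07 ± 0.08 in blood. Csf1, the macrophage growth factor, fell by 0.44 in spleen and rose by 0.44 in blood, and its receptor Csf1r fell by 0.22 and rose by 0.81 (differences -0.88 ± 0.11 and -1.03 ± 0.25). Il1b rose in both (2.20 and 2.72), and Il6, Csf3 and Tnf changed by 0.28, -0.07 and -0.06 in spleen, where Il6 alone was called.

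Monocyte and macrophage genes did not move as a block. Over all genes 11% of differences were above 0 and 9.56% below. Of 12 monocyte genes, 7 rose and 1 fell in spleen and 6 rose in blood, with 3 differences above 0 and 1 below. F13a1, the coagulation factor XIII subunit of monocytes, rose by 2.45 ± 0.18 in spleen with no overlap of groups, and its blood change of 0.44 ± 0.25 was not called (difference 2.01 ± 0.29). Fn1, fibronectin, differed by 1.23 ± 0.29 and was not called in the earlier series (0.50, adjusted p = 0.606). Of 15 red pulp macrophage genes, 2 rose and 2 fell in spleen, and 2 differences were above 0 and 3 below. Spic, the transcription factor that these macrophages need, changed by -0.04 in spleen and 0.03 in blood. Cd5l, an apoptosis inhibitor secreted by macrophages, rose by 0.75 ± 0.19 in spleen and fell by 0.77 in blood, although the fall in blood did not pass in the 20 pairs (adjusted p = 0.0674).

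Lymphocyte genes fell in part over 24 pairs and in larger number in the 20 pairs. Of 17 B cell genes, 6 fell in spleen and 14 in blood, with 1 difference above 0 and 1 below. In the 20 pairs 17 fell in spleen and 15 in blood, with 5 above and 1 below. Cd79a, a chain of the B cell receptor, changed by -0.62 ± 0.32 in spleen over 24 pairs (adjusted p = 0.128) and by -1.04 over 20 pairs (adjusted p = 1.27e-09). Its blood change was -1.06 ± 0.23, and the difference was not called in either set (0.44 ± 0.37 and 0.20 ± 0.22). The transcriptional coactivator Pou2af1 was the B cell gene above 0 (0.18 in spleen, -1.11 in blood) and Pax5 the gene below (-0.62 and -0.09). Of 18 T cell genes, 3 fell in spleen and 6 in blood (18.1% and 4.17% of all genes fell), and limma called 0 differences (0 also at an unadjusted p under 0.05). In the 20 pairs 18 fell in spleen, 14 in blood and 8 differences were below 0. Over all genes 25.3% fell in spleen and 10.3% in blood there, and 13.8% of differences were below 0. Of 14 NK and cytotoxic genes, 6 fell in spleen and 11 in blood, and 1 difference was above 0, that of the granzyme Gzmb (0.02 and -0.87), against 10 in the 20 pairs.

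Stress, hormone and clock genes gave smaller differences. Among all genes 18.1% fell in spleen, and 11% of differences were above 0 and 9.56% below. Of 16 circadian clock genes, 9 fell in spleen, 2 rose and 2 fell in blood, and 4 differences were below 0 (5 in the 20 pairs). Dbp, an output gene of the clock, fell by 1.02 in spleen (lower in 24 of 24 pairs) with -0.40 ± 0.16 in blood, and its difference of -0.62 ± 0.19 was not called in the 20 pairs (adjusted p = 0.0847). The clock repressor Nr1d1 differed by -0.51 ± 0.13 and Per2 by -0.40 ± 0.13 (adjusted p = 0.0889 in the 20 pairs). The cell cycle inhibitor Cdkn1a rose by 0.91 ± 0.07 in spleen with no overlap of groups and by 0.05 ± 0.06 in blood, where it was not called. Sgk1, a glucocorticoid-induced kinase, rose in blood (0.96 ± 0.25, difference -1.10 ± 0.25), and Pdk4, a brake on pyruvate dehydrogenase, fell by 1.08 in spleen (difference -1.09 ± 0.25). Zfp36, which destabilises cytokine mRNAs, fell by 0.37 in spleen and rose by 1.23 in blood. In the list of immediate early and heat shock genes 1 of 19 differences was above 0 and 2 below, and in that of the endoplasmic reticulum stress and amino acid response 1 of 17 and 3, with Xbp1 at -0.95 ± 0.22.

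Of 19 receptors, ligands and feedback genes of the ErbB pathway, 1 difference was above 0 and 3 below, a share near the 20.6% of all genes called. Dusp6, a phosphatase induced by ERK, fell by 0.32 in spleen and rose by 1.01 in blood (difference -1.33 ± 0.25). Errfi1, a feedback inhibitor of the receptors, fell by 1.39 in spleen, and its difference of -1.26 ± 0.37 was not called in the 20 pairs (adjusted p = 0.0791). None of 14 genes of mammary epithelium and milk, of 9 hepatocyte genes or of 13 pancreas genes was called by limma for its difference. Nor did any pass an unadjusted p under 0.05 by limma. Hepatocyte genes still had a mean level of 11.31 in 1 control blood array and 9.65 in 1 tumor-bearing blood array. Neither was among the arrays that stood apart. The medians were 5.11 and 5.10. Pancreas genes reached a mean level of 14.56 in control and 14.19 in tumor-bearing spleen arrays, against medians of 6.97 and 6.35. The part of neighbouring pancreas in those spleen arrays was not tested. The milk protein gene Glycam1 is outside the list of mammary epithelium and milk and is also made by high endothelial venules. It had 1 of the 12 largest positive differences and is described with them above.

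Of the genes that moved in opposite directions, the largest difference after those named above was that of Arhgap24, a GTPase-activating protein for Rac. Its control blood arrays lay at 3.50, 3.87 and 4.51 and its tumor-bearing ones at 4.17, 5.12 and 7.10, and its spleen arrays at 7.73, 8.26 and 11.63 against 7.54, 7.79 and 8.32. Without the 4 pairs the highest control spleen was 8.54, and the fall in spleen was 0.43 in place of 0.69. The difference was -1.96 ± 0.24 (adjusted p = 1.05e-06; -1.61 ± 0.19 in the 20 pairs). Dennd3, an activator of a Rab GTPase, fell by 0.53 ± 0.06 in spleen and rose by 1.32 ± 0.15 in blood (difference -1.85 ± 0.17).

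Whether the mice with the larger change in spleen also had the larger change in blood was examined for 11 genes. Among them were the granulocyte genes S100a8, Lcn2, Ngp, Mpo and Prtn3. Lcn2 and Ngp are both on the late granule list, and Mpo and Prtn3 both on the primary granule list. Over 24 pairs Lcn2 had a Pearson r of 0.54 (permutation p = 0.00874, adjusted p = 0.0481) and a Spearman rho of 0.57 (permutation p = 0.00463, adjusted p = 0.0496). Ngp had an r of 0.53 (permutation p = 0.00799, adjusted p = 0.0481) and a rho of 0.53 (permutation p = 0.00902, adjusted p = 0.0496). Without the 2 pairs farthest from the median spleen change r was 0.72 and 0.77, and in the 20 pairs 0.68 and 0.73. The rho in the 20 pairs was 0.54 and 0.56 and did not pass after adjustment (permutation adjusted p = 0.0764 for each). Within the earlier series r was 0.76 for Lcn2 and 0.68 for Ngp, and within the later series 0.50 and 0.51, none of which passed after adjustment (permutation adjusted p = 0.066, 0.0894, 0.409 and 0.409). The other 9 genes had r between -0.27 and 0.23 and did not pass, among them Mpo (-0.27) and Prtn3 (0.04), the early granule genes that rose in spleen.

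No measure of RNA quality passed after adjustment. The ratio of 3 prime to 5 prime control probe sets of Gapdh changed by 0.12 ± 0.05 in spleen (sign-flip permutation p = 0.0135, adjusted p = 0.081 over 6 comparisons), and that of Actb differed between the organs by 0.14 ± 0.07 (sign-flip permutation p = 0.0535, adjusted p = 0.107). Named genes kept their sign in both series of days, apart from Pf4 (0.00 in the earlier series) and Cd79a, Ifit3 (-0.26 and 0.13 in the earlier, 0.94 and -0.07 in the later series), none of which was called.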

How the data were processed

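RNA of spleen and blood cells was measured on 1-colour Affymetrix arrays, extracted with Trizol and labelled as biotin cRNA, per the labels' protocols. The values deposited by the authors are a linear intensity per probe set. How they were summarised and scaled is not given in the sources used here. The members and gene lists were chosen with earlier results of these data known. Intensities under the 5th percentile (11.3) were set to that floor before log2 values were taken. Of 45101 probe sets, 34945 had 1 gene symbol, updated through Entrez numbers to the mouse annotation GRCm38.p6 (34741 matched), 932 had several and 9160 had none. Each gene was represented by its brightest probe set (mean of 250 arrays), and probe sets without a single symbol were fitted separately, without 64 control probe sets. Probe sets of one gene can disagree, and other choices of probe set were among the alternatives.

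The difference and each organ's change were tested over pairs with limma 3.58.1 in R 4.3.3 (intercept only, empirical Bayes, Benjamini-Hochberg over 18193 genes), and "rose" and "fell" mean an adjusted p under 0.05. A change counted as bounded where its 95% interval lay within 0.5 of 0. Relations and single ratios used permutation or sign-flip tests (100000 resamples, two-sided) in scipy 1.17.1 under Python 3.11.15, and tables were handled in pandas 2.3.3.

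The pairing of tumor-bearing and control mice comes from the labels, which name for every mouse a littermate control of the same age and cage. After group means were removed, the mice of a pair correlated with a median of 0.103 in spleen and 0.212 in blood, against 0.00493 and -0.00138 for other pairings. Named genes are the 12 largest differences in each direction with one sign in at least 20 pairs, up to 6 of the largest in each of the 4 classes, from each list with 3 or more differences called up to 3 members of smallest p, Erbb2 and the genes of the relation test. An array stood apart when its median correlation with the other arrays of its organ fell below a limit of 0.963 in spleen or 0.903 in blood. The lists of kidney tubule, lung airway and heart, and thymocyte genes were written after these arrays were seen, and so was the choice to leave out only the pairs with such a spleen array or blood array. The number of arrays limits the precision, and the mice of a pair share a litter and cage. Alternatives are given with the closing results. Promoters come from RefSeq (GRCm38.p6), and those on chromosome 18 were not used here.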

Additional observations from a re-analysis of the deposited data

Results flagged for a closer look

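The spleen-blood difference is itself a comparison of one contrast in 2 organs, and it was tested within mice. By that test the spleen change lay above the blood change for 2002 genes and below it for 1740. Of those 1740, 469 had a mean spleen change above 0. Opposite directions were found for 259 genes, each of these at an adjusted p under 0.05 in both organs. Among the named genes with opposite changes the difference was -3.18 for the iron exporter Slc40a1, -2.57 for the glucose transporter Slc2a1 and -2.30 for the sorting receptor Sorl1. It was -2.19 for the glycosyltransferase Gcnt1, -1.96 for Arhgap24 and -1.85 for Dennd3. All 6 fell in spleen and rose in blood, in the 24 pairs and in the 20 pairs. Within the later series alone the spleen fall was not called for Slc40a1 (-0.24, limma adjusted p = 0.181), Sorl1 (-0.12, limma adjusted p = 0.356) or Gcnt1 (-0.57, limma adjusted p = 0.143). Within the earlier series alone the blood rise of Arhgap24 was not called (1.24, limma adjusted p = 0.0808). The spleen changes of Slc40a1 and Sorl1 also met the bound of 0.5.

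Probe sets without a single gene symbol belong to no comparison above. Of 10092 such probe sets, the spleen change was above the blood change for 502 and below it for 834. In spleen 1091 of them rose and 1906 fell, and in blood 340 rose and 275 fell.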

How the results depend on the processing

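The counts of genes above and below were 2002 and 1740. Among the 7283 genes at or above the median level in both organs they came to 961 above and 1190 below. Fewer genes were tested there, and more lay below than above, the reverse of the main counts. With mice of one day averaged, where fewer values entered, the counts were 1271 above and 1149 below. In the earlier series they were 803 and 903, in the later series 717 were below, and without the 4 pairs with an array that stood apart 3080 were above. Without the pairing (no replicate block) the counts were 1811 and 1532, and fewer genes fell in spleen (2053 against 3299), moved in opposite directions (158 against 259) or moved unequally in the same direction (189 against 413).

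Among genes at or above both medians, 2365 rose and 1920 fell in spleen and 824 changed in spleen with blood bounded (the blood-bounded pattern). The falls in blood were the least stable count (758): they were 503 with a floor at an intensity of 32, 1158 after quantile normalization within each organ, 470 with each array centred on its median, 1740 with only mice linked by shared numbers, 185 with days averaged, 14 in the earlier series, 1873 in the 20 pairs and 2156 without the pairs with an outlying blood array. Why they moved was not tested. With days averaged, 1414 genes had the blood-bounded and 362 the spleen-bounded pattern, 77 were opposite and 245 unequal in one direction. In the earlier series these were 914, 85, 24 and 122, with 303 rises in blood. In the later series they were 1114, 402 and 171, leaving out the opposite pattern, with 1740 falls in spleen. In the 20 pairs the 4 patterns counted 3409, 1428, 699 and 769 genes. Without the pairs with an outlying blood array the spleen-bounded pattern held 1334 and the opposite pattern 545, and with only mice linked by shared numbers the opposite pattern held 399.

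Leaving out 1 pair at a time gave 1825 to 2325 genes above, 1518 to 2020 below, 3852 to 4455 rises and 3047 to 3996 falls in spleen, 1403 to 1638 rises and 594 to 1523 falls in blood, 1981 to 2481 blood-bounded, 610 to 968 spleen-bounded, 200 to 428 opposite and 352 to 460 in one direction. Pair 14 was the pair left out at 1523 falls in blood and at 428 opposite genes. The relation of the organs within a series was 0.76 and 0.50 for Lcn2 and 0.68 and 0.51 for Ngp, not past the threshold. The 92 named genes with a difference were refitted under 22 alternatives. Of 1973 comparisons 1903 kept direction and side of the threshold, 66 lost the call, 3 gained it (Pf4 in 2, Mki67 in 1) and 1 turned, that of Ereg, at 0.00 with a floor at 32. Blood signal is dim: 14.2% of its values were at the floor against 0.00133% in spleen, which limits what can be seen of genes that blood expresses weakly.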

Other observations

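Other groups of genes, with values only, showed the following. Of 17 genes of myeloid suppression and arginine use, 7 rose and 2 fell in spleen, 9 rose in blood, and 6 differences were below 0 (9 in the 20 pairs). Wfdc21, a secreted whey acidic protein family member, differed by -1.18, and the NADPH oxidase subunits Ncf4 and Cyba by -0.78 and -0.76. Arg2, the mitochondrial arginase, rose by 2.66 in spleen and 3.64 in blood with a difference of -0.97 that passed only in the 20 pairs (-0.49), while Arg1 and Nos2 changed by -0.02 and 0.01 in spleen and were not called.

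Genes of the lymphoid stroma and of antigen presentation were called more often once the 4 pairs with an array that stood apart were left out. The share of all genes called for their difference also rose then, from 20.6% to 30.7%. Of 12 genes of lymphoid stroma and homing, 2 differences were below 0 in 24 pairs and 9 in the 20 pairs, with Cxcl13, the B cell follicle chemokine, at -0.75 and -1.22. Bst1, an ectoenzyme of stroma and neutrophils, rose in both organs and more in blood (0.64 and 2.24, difference -1.60). Of 9 MHC class II genes, 5 fell in spleen and 5 in blood, and 1 difference was above 0 and 1 below. The difference above was that of H2-Ob (-0.46 in spleen, -1.77 in blood), a modulator of peptide loading, and the one below that of the class II transactivator Ciita (-0.57 and -0.10). Of 13 dendritic cell genes, 4 fell in spleen (12 in the 20 pairs) and 1 rose and 3 fell in blood, with 2 differences below 0 (6 in the 20 pairs). Xcr1, of cross-presenting dendritic cells, fell by 0.63 in spleen, and the integrin Itgax rose by 1.17 in blood (difference -1.11).

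Among 17 genes of iron handling, 9 rose and 1 fell in spleen and 6 rose in blood, with 6 differences above 0 and 3 below. Those above included Steap3, the ferrireductase of the transferrin cycle (0.58 and -0.17, difference 0.75), Alas1 (0.65) and the iron importer Slc11a2 (0.27), in contrast to Slc40a1 at -3.18. The ectonucleotidase gene Entpd1 (CD39) changed by 0.06 in spleen and 1.26 in blood (difference -1.20), the 1 called among 12 checkpoint and regulatory T cell genes, of which Foxp3, Ctla4 and Pdcd1 changed by 0.06, 0.01 and 0.03 in spleen. Fast muscle Mylpf and the glucose transporter Slc2a4 rose in spleen (0.94 and 0.95) with blood changes of 0.02 and -0.03. Their lists, skeletal muscle and adipocyte, reached mean levels of 7.82 and 11.71 in tumor-bearing spleen arrays (medians 5.81 and 7.14). In control spleen arrays the lists reached 5.85 and 9.74 (medians 5.74 and 7.22). The part of neighbouring tissue in these rises was not tested. Of 12 plasma cell genes and of 7 genes of marginal zone macrophages, 1 difference was above 0 and 1 below in each list. Over all genes the shares were 11% and 9.56%. In the 20 pairs 5 of the macrophage genes were below 0, against 13.8% of all genes.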
